A study of Mus musculus with 34 samples.

Results

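The hippocampus is built of subfields that differ in their principal neurons, and 8 genes that mark 3 of these subfields are described here in the hippocampus of mice with and without contextual fear conditioning. The genes were taken by symbol: Wfs1, Nov, Fibcd1 and Pou3f1 for CA1, Prox1, C1ql2 and Dsp for the dentate gyrus, and Bok for CA3. All 8 were found among the 11531 genes of the tissue tables of ribosome-protected fragments (footprints, RPF) and of RNA. In the table of a hippocampal primary culture 5 of the 8 were listed, and in that of embryonic stem cells 4 of the 8.

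Tissue came from C57BL/6N mice, without stimulus in the control group or 5, 10 or 30 min or 4 h after conditioning, in which a mouse explored a chamber and received a single foot shock. Each of the 5 groups had 3 replicates in each kind of library, which gives 15 RPF and 15 RNA libraries. The culture and the embryonic stem cells (the A3-1 line, given a siRNA that targets luciferase, a gene mouse cells lack) had 1 RPF and 1 RNA library each, of 34 samples in all. The sources used here do not give the age or sex of the mice or say whether replicates came from separate mice, and p-values therefore measure only how far these samples spread, which could be technical. The labels name hippocampal tissue and no subfield, so the origin of a transcript in CA1, CA3 or the dentate gyrus was not measured. In such bulk tissue fewer cells of a type and less RNA per cell cannot be told apart.

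In the hippocampal circuit, granule cells of the dentate gyrus send mossy fibres to CA3 pyramidal neurons, which in turn project to CA1, the main output of the loop. Each of these cell types keeps its own set of transcripts in adulthood, and those transcripts are widely used to recognise the subfields. Footprints report ribosomes on an mRNA, so the ratio of footprints to RNA, the translational efficiency (TE), reports how densely an mRNA is occupied relative to other mRNAs.

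The deposited values, called signal here, are whole numbers of reads divided by a single number for each library, and were compared between libraries within a gene. Tissue RPF libraries held 14240563 to 30480009 reads on listed genes and tissue RNA libraries 16814796 to 25515210. Every one of the 8 genes had reads in each of the 30 tissue libraries, from 93 reads (Dsp, RPF) to 16829 (Nov, RPF). Dsp averaged a signal of 0.642 in RPF, below the minimum mean of 1 used for testing, so its RPF and TE tests come from the fit without that minimum. The other members passed in both kinds of library, and Dsp passed in RNA with a mean of 1.07.

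Promoter sequence is shown for the pair of CA1 genes with a sequence entry whose footprints varied together, Wfs1 and Fibcd1, and for C1ql2 as a dentate gyrus gene. RefSeq sequences (GRCm38.p6, not the mm9 build to which the reads were aligned) were found for 6 of the 8 genes by symbol. Entries for Nov and Pou3f1 were not used here. Each sequence covers the 250 bases before the annotated transcription start, read 5′ to 3′ on the gene's strand, with capitals for the letters of TGACG or its reverse complement CGTCA, the core of the cAMP response element. Wfs1 lies on the minus strand at chr5:36988983-36989232, Fibcd1 on the minus strand at chr2:31846006-31846255 and C1ql2 on the plus strand at chr1:120340332-120340581.
Wfs1: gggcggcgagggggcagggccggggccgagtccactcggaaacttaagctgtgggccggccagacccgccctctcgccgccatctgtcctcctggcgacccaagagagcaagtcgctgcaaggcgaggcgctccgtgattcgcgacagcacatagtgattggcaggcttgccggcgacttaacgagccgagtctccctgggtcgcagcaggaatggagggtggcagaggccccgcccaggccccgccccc
Fibcd1: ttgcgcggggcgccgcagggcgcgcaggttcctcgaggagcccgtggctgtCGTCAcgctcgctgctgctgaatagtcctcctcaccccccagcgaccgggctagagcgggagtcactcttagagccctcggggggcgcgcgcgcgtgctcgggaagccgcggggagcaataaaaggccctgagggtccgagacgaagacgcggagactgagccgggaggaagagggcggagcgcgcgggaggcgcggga
C1ql2: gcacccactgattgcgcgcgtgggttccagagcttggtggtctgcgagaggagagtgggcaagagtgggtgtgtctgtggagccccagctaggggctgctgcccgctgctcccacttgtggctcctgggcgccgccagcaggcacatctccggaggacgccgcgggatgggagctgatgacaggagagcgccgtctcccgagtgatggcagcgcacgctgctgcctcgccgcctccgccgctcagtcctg

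These windows were rich in CpG, with 23 CpG dinucleotides in Wfs1, 34 in Fibcd1 and 20 in C1ql2, against a median of 6 over 32851 mouse promoter windows of the same length. TGACG on either strand was found once in the Fibcd1 window and in no window of Wfs1, Prox1, C1ql2, Dsp or Bok, while 17.8% of all windows held it. The full element TGACGTCA was in none of them and in 1.55% of all windows. CCGCCC on either strand, the GC box, occurred 4 times in Wfs1, once in Fibcd1 and not in C1ql2, and 32.7% of all windows held it. A match of letters is a description of the window and no evidence of binding.

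After conditioning, none of the 8 genes passed the test for a change in footprints, RNA or TE at any time. With limma's moderated test and Benjamini-Hochberg adjustment over all genes, the smallest adjusted p of any member was 0.999516 in RPF, 0.999673 in RNA and 0.999793 in TE. The background was the same: 0% of 7898 genes were called in RPF at each time, 0% of 8061 in RNA and 0% of 7103 in TE, and without the minimum mean 0.00867% of 11531 genes in RPF at 10 and at 30 min. Unadjusted p under 0.05 was reached by 20 to 51 genes in RPF, 84 to 209 in RNA and 16 to 58 in TE, depending on the time, and by 0 of the 32 gene-by-time values of the 8 genes in each kind. With the labels' replicate number (1 to 3 in each group) as a block in limma, which also called no member (adjusted p of at least 0.667857 in RPF, 0.256001 in RNA and 0.806453 in TE), it was reached by 6 of 32 in RPF, 3 of 32 in RNA and 1 of 32 in TE. Over all genes the block raised the share of gene-by-time tests with such a p from 0.44% to 4.74% in RPF, from 1.74% to 11.2% in RNA and from 0.591% to 5.02% in TE. The 6 RPF values were Fibcd1 at 5 min, 10 min and 4 h (unadjusted p of 0.0125, 0.0320 and 0.00996), Nov and Wfs1 at 5 min (0.0297 and 0.0411) and Pou3f1 at 10 min (0.0160), each higher than control in all 3 numbers. All are CA1 genes, and they share the control libraries. The others were Prox1 RNA at 10 and 30 min (0.0175 and 0.0480), Dsp RNA at 4 h (0.0321) and Prox1 TE at 5 min (0.0146). The 32 changes on the log2(signal + 1) scale lay between -0.07 and 0.18 in RPF and between -0.06 and 0.11 in RNA. Their 95% intervals reached from -0.42 to 0.42 in RPF and from -0.23 to 0.31 in RNA, and all held 0 in the fit without the block. On this scale changes of genes with a low signal are understated. With the block the standard errors were smaller, in RPF 0.0432 against 0.124 for Pou3f1 and 0.0768 against 0.0932 for Nov. The standard errors and p-values given below for changes of the 8 genes from control are those without the block. That fit counts differences between the replicate numbers as error, so its unadjusted p-values for the 8 genes are larger than with the block. A missing call there does not show that a change is absent.

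**Figure D1:**
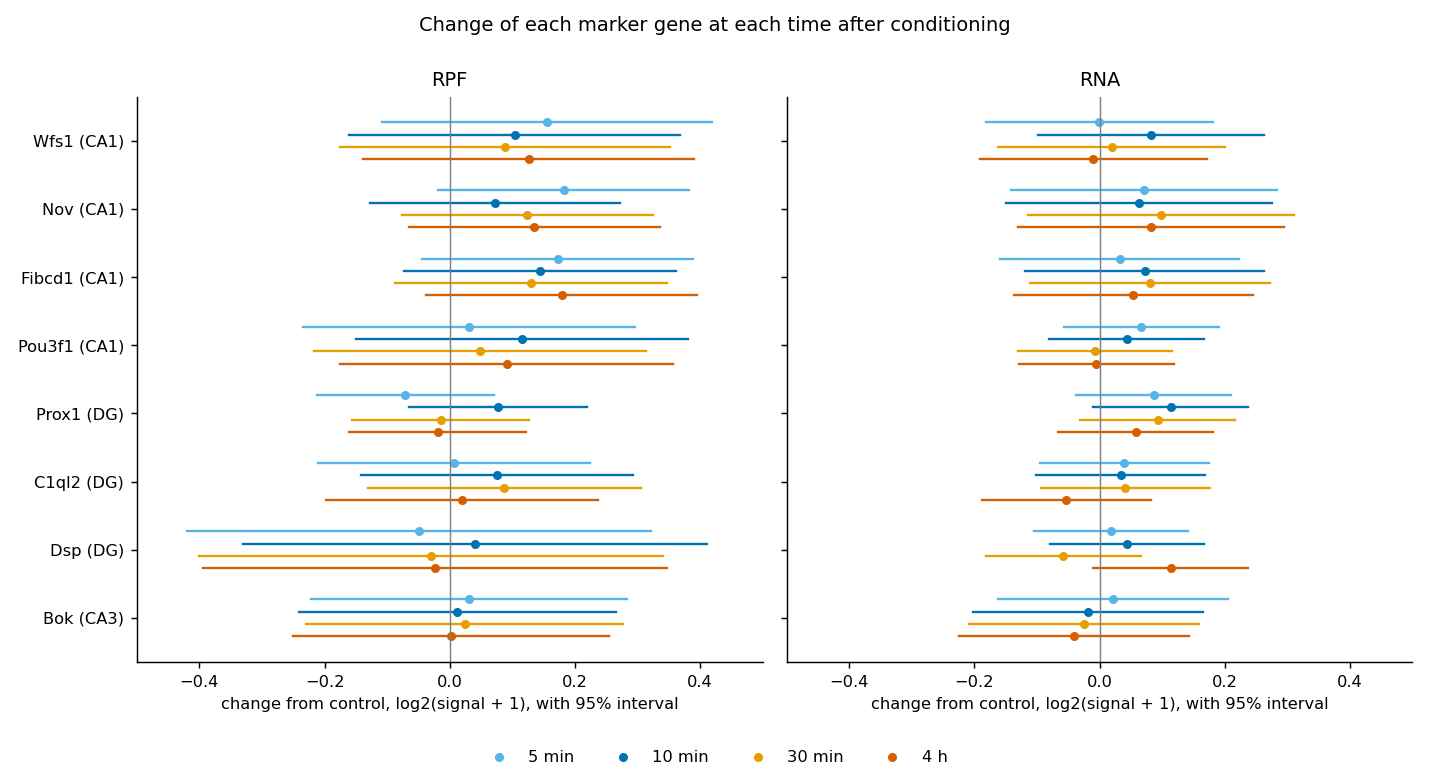
Change from control of each of the 8 genes at 5, 10 and 30 min and 4 h, on the log2(signal + 1) scale, in RPF (left) and RNA (right); points are limma estimates and lines 95% intervals, from the fit without the replicate block. All intervals hold 0, and those of Dsp in RPF, the gene with the fewest reads, reach from -0.42 to 0.41. Standard errors were smaller with the block, whose intervals are not shown.

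Among the CA1 genes, Nov, which encodes a secreted matricellular protein of the CCN family, had the smallest unadjusted p in RPF. Its RPF signal in the control libraries was 37.4, 30.7 and 34.1, and at 5 min it was 38.4, 38.0 and 39.6. The 5 min libraries all lay above the controls, with means of 34.1 ± 3.31 and 38.7 ± 0.841 (SD, n = 3). The change was 0.18 ± 0.09 (SE) with an unadjusted p of 0.0713 and an adjusted p of 0.999684 (limma), so it did not pass. At 5 min, 4.84% of genes had RPF groups without overlap with control.

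Fibcd1, which encodes a membrane receptor for acetylated compounds, also had higher 5 min values. Its RPF signal was 15.6, 14.4 and 13.7 in the control libraries and 18.1, 15.6 and 15.9 at 5 min, and the groups touched without overlapping. At 4 h it was 16.6, 17.8 and 15.4, which overlapped the control libraries. The changes were 0.17 ± 0.10 (SE) at 5 min and 0.18 ± 0.10 at 4 h, with unadjusted p of 0.110 and 0.0983 and adjusted p of 0.999684 and 0.999837 (limma).

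Wfs1, which encodes wolframin, a membrane protein of the endoplasmic reticulum, had an RPF signal of 25.7, 19.4 and 23.7 in control libraries and of 28.3, 23.5 and 24.99 at 5 min. Each replicate number was higher at 5 min than its control, but the groups overlapped (change 0.16 ± 0.12 (SE), limma adjusted p of 0.999684). Its control replicate 2 was the lowest of the 15 and also held the lowest Nov signal. Pou3f1, a POU-domain transcription factor, differed at most by 0.12 ± 0.12 (SE) in RPF, at 10 min, where its group mean of 2.17 ± 0.236 (SD, n = 3) stood against 1.94 ± 0.414 in control.

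RNA means of the CA1 genes lay closer together. Over the 5 groups the highest mean exceeded the lowest 1.08-fold for Wfs1, 1.07-fold for Nov, 1.06-fold for Fibcd1 and 1.09-fold for Pou3f1, beside 1.08-fold for the median gene. In RPF the same ratio was 1.11-fold for Wfs1, 1.14-fold for Nov, 1.14-fold for Fibcd1 and 1.12-fold for Pou3f1, again beside 1.08-fold for the median gene. Control had the lowest RPF mean of the 5 groups for all 4 CA1 genes and for C1ql2 and Bok, a place it held in 26.6% of all genes, and the lowest RNA mean for Nov, Fibcd1 and Prox1, as in 44% of all genes. The 4 times share the same control libraries, so these orders are not separate observations. Markers of the choroid plexus had the opposite place: control had the highest RPF mean for 10 of 10 of them, as in 20.3% of all genes, and the highest RNA mean for 10 of 10, as in 12% of all genes. Ttr, the transthyretin gene, had an RPF mean of 1063 in control and of 617 to 833 at the 4 times. The summed RPF signal of the 10 overlapped between groups, at 182 to 2105 in control and 68.6 to 1728 afterwards, and 0 of them were called by limma (smallest unadjusted p of 0.284 in RPF and 0.329 in RNA). Their part in the order of the CA1 genes was not tested.

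**Figure D2:**
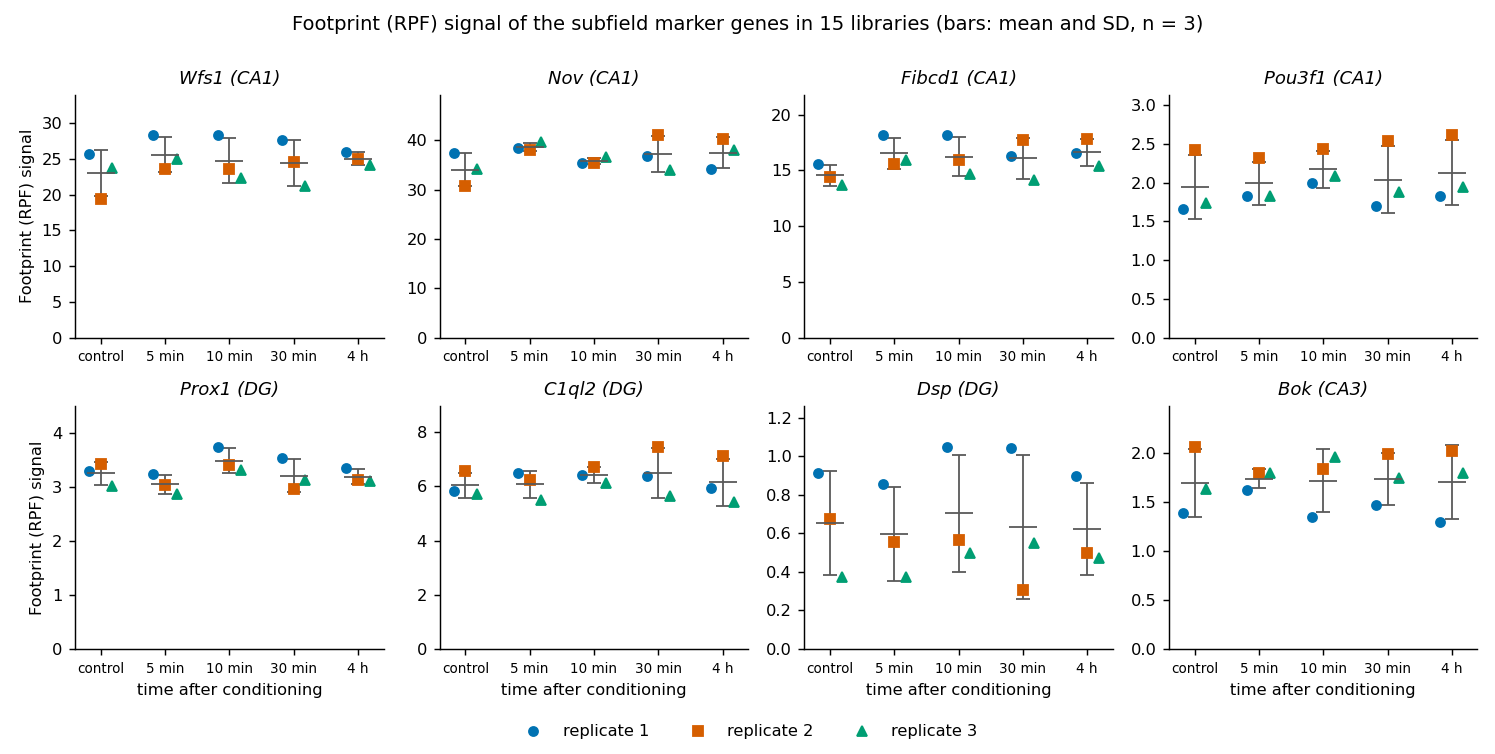
RPF signal (linear axis from 0) of the 8 genes in the 15 tissue libraries by time after conditioning; symbols mark the replicate number, and bars the mean and SD of 3 libraries. Time groups overlap for most genes, while 1 replicate number lies apart from the other 2 in Dsp and Wfs1 (number 1, above), Pou3f1 (number 2, above) and Bok (number 1, below).

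Of the dentate gyrus genes, Prox1, a homeobox transcription factor of granule cells, had the smallest unadjusted p in RNA. Its RNA signal was 3.07, 3.39 and 3.32 in control libraries and 3.48, 3.77 and 3.57 at 10 min. The groups did not overlap, and the change was 0.11 ± 0.06 (SE) with an unadjusted p of 0.0684 and an adjusted p of 0.999673 (limma). At 30 min its values of 3.40, 3.61 and 3.62 again lay above control by a small margin, with an unadjusted p of 0.129. At 10 min 7.07% of genes, and at 30 min 5.12%, had RNA groups without overlap with control, and at 5 min 4.78%, with no member among them. The RPF mean of Prox1 was 3.25 ± 0.208 (SD, n = 3) in control, 3.05 ± 0.183 at 5 min and 3.49 ± 0.232 at 10 min, with overlapping libraries. The TE of Prox1 at 5 min was lower than in control in all 3 replicate numbers (change -0.16 ± 0.09 (SE), unadjusted p of 0.0787, adjusted p of 0.999839, limma).

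C1ql2 encodes a secreted protein of mossy fibre synapses. Its RNA signal was 3.57, 3.46 and 3.43 in control libraries and 3.37, 3.29 and 3.32 at 4 h, below every control library, yet the change of -0.05 ± 0.06 (SE) had an unadjusted p of 0.414. At 4 h 6.89% of genes had RNA groups without overlap with control. Its RPF signal peaked at 30 min with 6.38, 7.47 and 5.65, which spans the control values of 5.82, 6.57 and 5.70. Dsp encodes desmoplakin, a linker of desmosomes. Its RNA signal was 0.925, 1.24 and 0.956 in control libraries and 1.27, 1.22 and 1.12 at 4 h, and these groups overlapped (change 0.11 ± 0.06 (SE), unadjusted p of 0.0689, limma adjusted p of 0.999920).

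For CA3, Bok, a member of the BCL-2 family, varied least with time in RPF. Its RPF signal averaged 1.69 ± 0.344 (SD, n = 3) in control and 1.70 to 1.74 at the 4 times, and its RNA signal 3.33 ± 0.455 in control and 3.19 to 3.39 afterwards. The highest RPF group mean exceeded the lowest 1.03-fold.

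**Figure D3:**
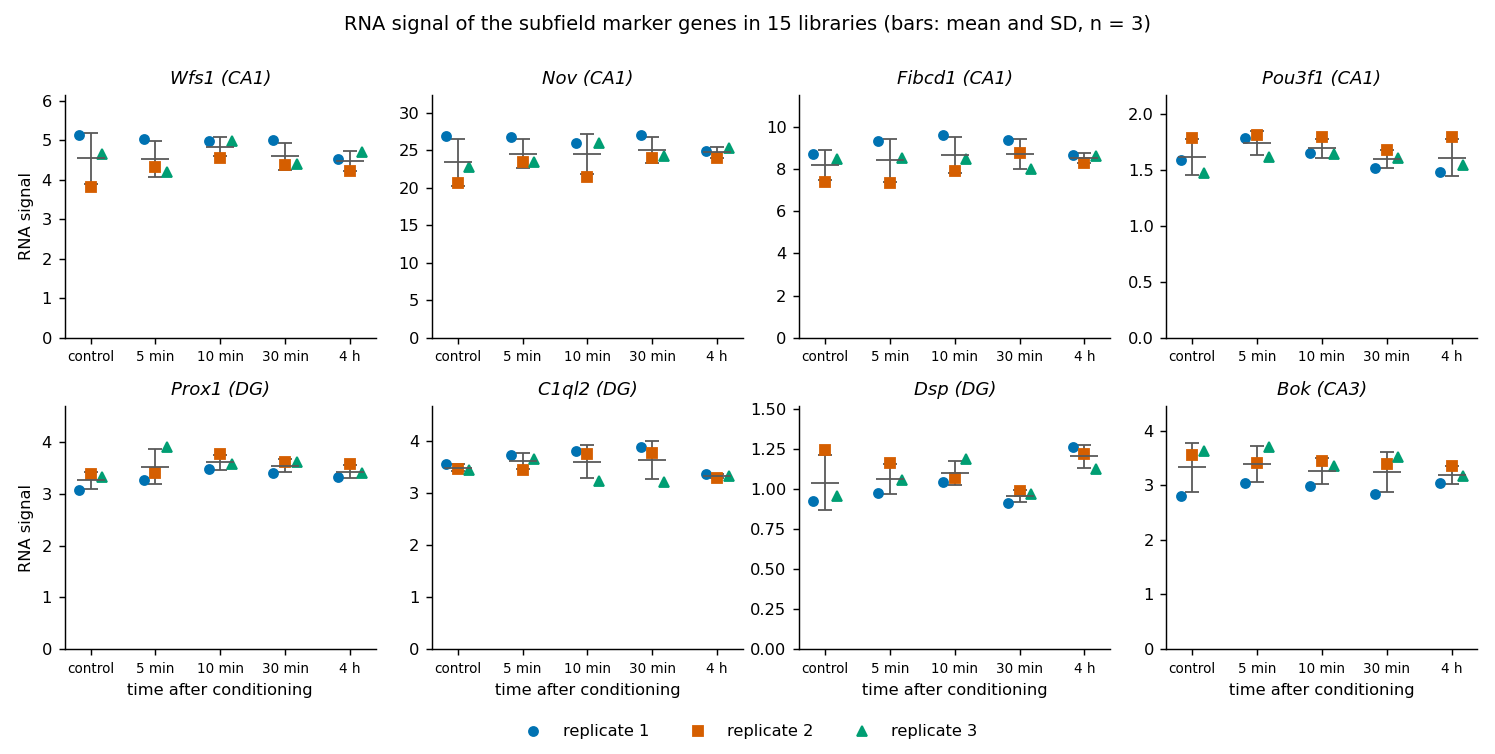
RNA signal (linear axis from 0) of the 8 genes in the 15 tissue libraries by time after conditioning; symbols mark the replicate number, and bars the mean and SD of 3 libraries. Prox1 at 10 and 30 min lies above its 3 control libraries, and Bok in number 1 lies below the other numbers at each time.

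The replicate number separated several of these genes. Its test held both time and number, whereas the main fits by time left the number out, so the calls of these tests are not compared. The labels number the libraries 1 to 3 within each group, and libraries with the same number deviated together across genes. The sources used here do not say what the number stands for. A moderated F-test over the 3 numbers, with time in the model, called 73.1% of genes in RPF, 65.5% in RNA and, without the minimum mean, 64.2% in RPF and 55.7% in RNA. Of the 7 members tested with the minimum mean in RPF 6 were called (all but Nov), as was Dsp without it, and of 8 in RNA 5 were called (Wfs1, Nov, Fibcd1, Pou3f1 and Bok), shares near the background. The members differed in the order of the numbers.

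Dsp differed most. Its RPF signal in replicate number 1 was 0.912, 0.858, 1.05, 1.04 and 0.899 in the order control, 5, 10 and 30 min and 4 h. In number 2 it was 0.677, 0.557, 0.563, 0.308 and 0.5, and in number 3 it was 0.374, 0.375, 0.496, 0.550 and 0.472. Every library of number 1 lay above all 10 others, which was the case for 1 number, above or below, in 42.5% of genes in RPF and 31.3% in RNA. The mean of number 1 was 2.10 times that of number 3 (limma F-test adjusted p of 8.54e-07, without the minimum mean), whereas the median gene differed 1.17-fold between its highest and lowest number. Dsp RNA averaged 1.02 ± 0.145 (SD, n = 5), 1.14 ± 0.106 and 1.06 ± 0.0986 in numbers 1 to 3, with overlapping libraries and an adjusted p of 0.177. Its coefficient of variation over the 15 RPF libraries was 38.6%, above that of 99.5% of genes. It also exceeded the 7.48% that counting error alone gives on average over these libraries, with a median of 166 reads. The shares of genes and the median gene in this paragraph come from genes that reached the minimum mean. Dsp in RPF did not, so it stands beside genes with a higher signal and less counting error.

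Pou3f1 was high in number 2. Its RPF signal there was 2.42, 2.31, 2.44, 2.53 and 2.61, in the same order of times. It was 1.66, 1.83, 1.99, 1.71 and 1.83 in number 1 and 1.74, 1.83, 2.08, 1.88 and 1.94 in number 3. The 5 libraries of number 2 stood above the 10 others, and the ratio of the highest to the lowest number was 1.36 (limma F-test adjusted p of 9.27e-07). In RNA number 2 again had the highest mean (1.61 ± 0.122 (SD, n = 5), 1.77 ± 0.0543 and 1.58 ± 0.0681 in numbers 1 to 3), with overlapping libraries (limma adjusted p of 0.0178). That RNA call was lost without 4 h replicate 2 (0.0757) or control replicate 2 (0.0635).

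Bok was low in number 1 in both kinds of library. Its RPF signal was 1.38, 1.62, 1.35, 1.47 and 1.29 in number 1, against 2.06, 1.796, 1.84, 1.99 and 2.02 in number 2 and 1.63, 1.79, 1.96, 1.74 and 1.79 in number 3. Its RNA signal was 2.81, 3.05, 2.99, 2.84 and 3.04 in number 1, 3.56, 3.40, 3.44, 3.39 and 3.36 in number 2, and 3.63, 3.71, 3.36, 3.53 and 3.18 in number 3. Number 1 lay below the other libraries in both, with ratios of 1.37 and 1.18 and limma F-test adjusted p of 5.54e-05 and 0.000104.

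The CA1 genes Wfs1, Nov and Fibcd1 were highest in number 1 and lowest in number 2 at the RNA level. Wfs1 RNA averaged 4.93 ± 0.235 (SD, n = 5), 4.26 ± 0.270 and 4.59 ± 0.299 in numbers 1 to 3, Nov 26.3 ± 0.865, 22.7 ± 1.53 and 24.4 ± 1.34, and Fibcd1 9.14 ± 0.423, 7.93 ± 0.597 and 8.42 ± 0.241. The limma F-test adjusted p was 0.00199, 0.000416 and 0.000912. All 3 calls were lost when the reads were scaled to the library total in limma voom (0.244, 0.126 and 0.237), and there the difference of number 3 from 1 in Wfs1 turned from -0.09 to 0.01. In RPF, Wfs1 in number 1 (25.7, 28.3, 28.3, 27.7 and 25.9) lay above the 10 other libraries, which ranged from 19.4 to 24.99 (adjusted p of 0.00179). Fibcd1 averaged 16.9 ± 1.153, 16.3 ± 1.48 and 14.8 ± 0.900 in RPF (adjusted p of 0.00599), where the sign of number 2 against 1 changed with voom scaling (-0.05 and 0.04), and Nov 36.4 ± 1.69, 37.1 ± 4.16 and 36.4 ± 2.48 (adjusted p of 0.925).

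In the dentate gyrus, C1ql2 and Prox1 each had a different order in RPF and in RNA, and the RPF order of Prox1 was that of Fibcd1. C1ql2 RPF averaged 6.21 ± 0.301 (SD, n = 5), 6.81 ± 0.485 and 5.67 ± 0.269 in numbers 1 to 3 (limma F-test adjusted p of 0.000458), and its RNA, 3.68 ± 0.211, 3.55 ± 0.212 and 3.37 ± 0.184, did not pass (0.0730, but 0.0315 without 5 min replicate 3). Prox1 RPF averaged 3.44 ± 0.211, 3.20 ± 0.211 and 3.09 ± 0.161 (0.0152). That call was lost without 10 min replicate 1 (0.0530), without 30 min replicate 1 (0.0746) and in limma voom (0.416). Prox1 RNA had the opposite order, 3.30 ± 0.156, 3.55 ± 0.158 and 3.57 ± 0.230, and did not pass (0.0561). It passed without 5 min replicate 2 (0.0259), 10 min replicate 3 (0.0463) or 4 h replicate 3 (0.0474), and with median-of-ratios scaling (0.00174) or limma voom (0.000140).

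Markers of neighbouring tissue and of other cells also moved with the replicate number. All 10 choroid plexus genes, led by Ttr, were listed with none at 0, and their summed RPF signal was 1324 to 2105 in number 1, 926 to 1906 in number 2 and 68.6 to 497 in number 3. The 8 endothelial and mural genes, led by Pdgfrb and with none at 0, summed to 10.53 to 12.6, 8.10 to 10.7 and 7.83 to 9.18. In the same F-test in RPF 9 of 9 choroid plexus genes tested were called, 4 of 5 endothelial and mural, 2 of 3 thalamic, 1 of 1 striatal, 6 of 6 neocortical, 7 of 7 interneuron and 6 of 8 oligodendrocyte genes, beside 73.1% of all genes. The part of such tissue and cells in the differences of Dsp, Pou3f1, Bok and the other members was not tested.

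Other genes of the same subfields, drawn from lists chosen with earlier results known, gave the following counts in the same F-test. Of the other CA1 genes tested, 2 of 5 were called in RPF and 2 of 6 in RNA, among them Man1a, a mannosidase, with RPF means of 14.7, 12.6 and 12.2 in numbers 1 to 3 (limma adjusted p of 0.000365), and Spink8 with 3.38, 3.82 and 4.28 (0.000119). Of the CA2 genes 3 of 6 were called in RPF and 4 of 5 in RNA. By size of change, Amigo2 led in RPF (4.28, 3.57 and 4.31, 0.00225), while the smallest limma adjusted p of that list was 5.23e-05. In RNA Rgs14, a regulator of G protein signalling, led by size of change (2.16, 2.00 and 2.74, 1.07e-06). Of the other CA3 genes 5 of 7 were called in RPF and 6 of 7 in RNA. Coch, a secreted cochlin, led in both by size of change, with RPF means of 2.50, 1.93 and 1.53 (1.62e-05).

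Of the other dentate gyrus genes 6 of 7 were called in RPF and 6 of 6 in RNA. These counts stand beside 73.1% of all genes in RPF and 65.5% in RNA, and with so few genes a list nothing particular to a subfield is read from them. Dock10, a guanine nucleotide exchange factor, had RPF means of 5.20, 3.65 and 3.72 (limma adjusted p of 1.42e-07), and the calcium buffer Calb1 had 11.3, 10.0 and 12.2 (0.000331). Glis3, a zinc finger factor, had RNA means of 2.27, 2.73 and 3.10 (3.32e-06). No single order of the numbers was thus shared by all genes of CA1 or of the dentate gyrus. In CA1, number 1 had the lowest Spink8 and the highest Man1a mean in RPF. In the dentate gyrus, number 1 had in RNA the lowest Glis3 mean and the highest Dock10 mean (6.74, 5.55 and 5.66 in numbers 1 to 3). Against control, limma called 0 genes of these 4 lists, and 0 genes of 7 lists for neighbouring tissue and other cells, at any time in RPF, RNA or TE. An unadjusted p under 0.05 was reached in 3 of 284 and 6 of 436 tests, and limma voom, run on RPF and RNA, also called 0. The most abundant gene of each subfield list in RPF had these means in control and over the 4 times. Man1a of CA1 stood at 12.3 and at 12.9 to 13.9, Pcp4 of CA2 at 15.4 and at 14.6 to 14.8, Spock1 of CA3 at 48.6 and at 49.6 to 53.3, and Calb1 of the dentate gyrus at 11.47 and at 10.51 to 11.4.

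Within replicate numbers, the footprints of 3 CA1 genes varied together. After each library was centred on the mean of its number, Pearson's r over the 15 RPF libraries was 0.82 for Wfs1 and Nov, 0.79 for Wfs1 and Fibcd1 and 0.75 for Nov and Fibcd1, and 0.15 to 0.62 for Pou3f1 with these. In RNA the same 3 pairs gave 0.57, 0.38 and 0.42. Prox1 and C1ql2, of the dentate gyrus, gave 0.12 in RPF and 0.50 in RNA. Pairs from different subfields ran in RPF from -0.62 for Nov and Prox1 to 0.59 for Pou3f1 and C1ql2, with 0.55 for C1ql2 and Bok and 0.51 for Fibcd1 and C1ql2. In RNA they ran from -0.70 for Nov and Bok to 0.54 for Fibcd1 and C1ql2, which was above the CA1 pairs of Fibcd1 with Wfs1 and Nov. These values describe libraries that share their depth and scaling and carry no test. Their place among all pairs of genes was not computed, so nothing particular to CA1 is read from them.

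Footprints and RNA of the same label deviated together in 2 of the 8 genes. The 8 correlations were computed over 15 pairs of libraries, centred on replicate numbers and permuted within them, and were adjusted by Benjamini-Hochberg over the 8. Fibcd1 gave r = 0.77 (permutation p = 0.00612, adjusted 0.0363) and Spearman's rho = 0.73 (p = 0.0132, adjusted 0.105), with r = 0.75 without the 2 pairs farthest from the median RNA value. Nov gave r = 0.74 (permutation p = 0.00908, adjusted 0.0363) and rho = 0.68 (p = 0.0275, adjusted 0.110), with r = 0.56 without 2 pairs. For the other 6 genes r lay between -0.13 and 0.35. Over 7103 genes the median r was 0.31 and 28.9% had r over 0.5, so 2 of 8 members is a share near the background. A number holds 5 pairs, too few for its own value.

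Both adjusted calls were thin. Leaving out a single pair ended the Nov call in 9 of 15 cases (control replicates 2 and 3, 5 min replicates 1 and 2, 10 min replicate 2, 30 min replicate 2 and the 3 of 4 h, adjusted p of at most 0.132). It ended the Fibcd1 call in 7 of 15 (control replicate 2, 5 min replicates 1 and 2, 10 min replicate 2, 30 min replicate 2 and 4 h replicates 2 and 3, at most 0.118). Without centring, Wfs1 (r = 0.65), Pou3f1 (0.74) and Bok (0.72) passed instead.

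Genes with the most similar course over the 15 RNA libraries, after the same centring, were sought among 7103 genes. For the mean of the 4 CA1 genes these were Nus1 (r = 0.95 in RNA and 0.38 in RPF), Atp13a3 (0.91 and 0.66), Grn, which encodes progranulin (0.91 and 0.75), Spock2 (0.91 and 0.87) and B3gnt1 (0.90 and 0.88). For the mean of Prox1 and C1ql2 they were Caly (0.92 and 0.31), Becn1 (0.88 and -0.42), Arl8a, Pfn1 and Fam107b. For Bok they were Limk1 (0.86 in RNA), Kdm1a (0.77), Mrpl55, Adnp2 and Drg2 (r in RPF from -0.22 to 0.17).

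The 8 genes spanned most of the range of footprint density. For each pair of libraries, TE was log2((RPF + 1)/(RNA + 1)) with the median gene's value subtracted. Gene length cancels in this ratio only as far as the added 1 is small beside the signal. With 0.1 added instead, the control means lay farther from 0, at 2.27 for Wfs1, -0.99 for Bok and -0.70 for Dsp. The values below are those with 1 added. Wfs1 stood at 2.11, 2.05 and 2.07 in the 3 control pairs, a mean of 2.08 ± 0.03 (SD, n = 3), and only 40 of 7103 genes were higher. Over all 15 pairs it ran from 1.95 to 2.30, above every other member in each pair. The mean RPF signal of Wfs1 was 5.34 times its mean RNA signal, while for Bok this ratio was 0.522.

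Fibcd1 (0.72 ± 0.14, SD, n = 3), C1ql2 (0.61 ± 0.10) and Nov (0.49 ± 0.04) followed Wfs1 in TE, higher than 85.7%, 82.0% and 77.0% of genes, with overlapping control pairs for Fibcd1 and C1ql2. The control pairs of Nov (0.44, 0.52 and 0.51) lay below those of C1ql2 (0.56, 0.73 and 0.54) by a gap smaller than the SD of C1ql2. Pou3f1 (0.12 ± 0.12) and Prox1 (-0.04 ± 0.11), both transcription factors, were near the median gene and overlapped each other. Dsp, with few reads, had -0.35 ± 0.28, and its control pairs stood at -0.03, -0.45 and -0.56 in numbers 1 to 3. Bok, with -0.72 ± 0.13, exceeded only 15.2% of genes. The control means ran from 0.12 to 2.08 in CA1 and from -0.35 to 0.61 in the dentate gyrus, and CA3 had Bok alone.

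**Figure D4:**
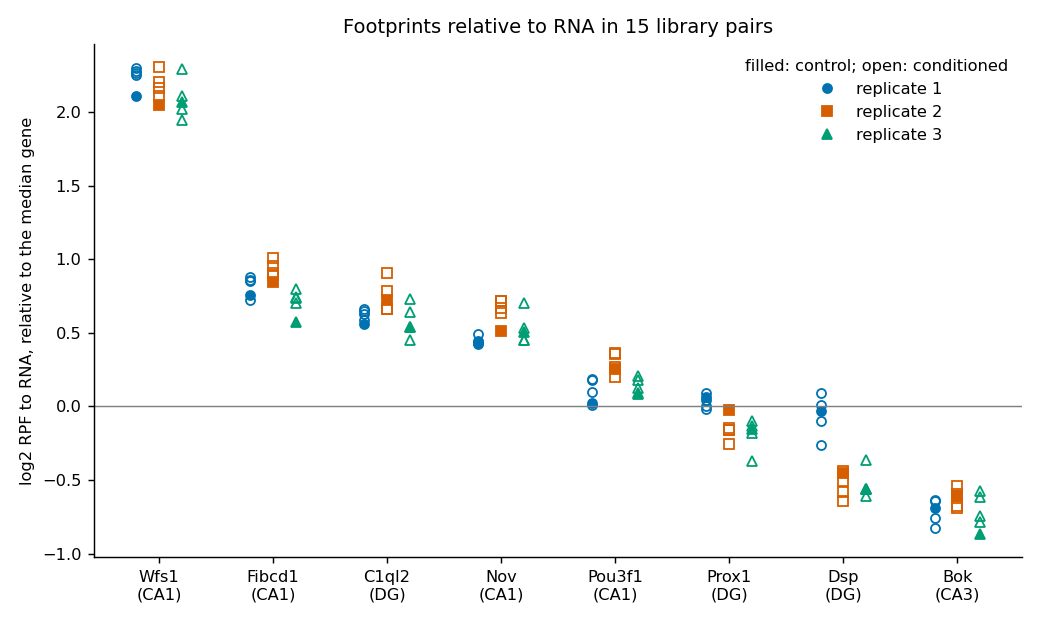
Log2 ratio of RPF to RNA relative to the median gene (line at 0) for the 8 genes, ordered by the control mean; each symbol is 1 of 15 library pairs, filled for control. Wfs1 lies between 1.95 and 2.30, apart from all other members, and Bok stays below -0.54.

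TE also differed by replicate number, in a test added after the data were seen. The interaction of library kind with number was called by limma in 44.2% of 7103 genes, and in 33.3% of 11531 without the minimum mean. Pou3f1 had a mean TE of 0.10, 0.29 and 0.14 in numbers 1 to 3 (adjusted p of 0.00124), Prox1 0.04, -0.15 and -0.19 (0.00239) and Dsp -0.06, -0.52 and -0.53 (4.17e-06, without the minimum mean), and these 3 calls held with any single pair left out. Fibcd1 (0.0266), C1ql2 (0.0251) and Nov (0.0471) passed but did not hold. The Fibcd1 call was lost without 10 min replicate 3, 4 h replicates 2 or 3 or control replicate 3 (at most 0.0659). That of C1ql2 was lost without 30 min replicates 1 or 2, 4 h replicates 2 or 3, 5 min replicate 3 or control replicate 2 (at most 0.127). That of Nov held only without control replicates 1 or 2, 5 min replicate 2 or 30 min replicate 3 (at most 0.119 otherwise). Wfs1 (0.266) and Bok (0.191) did not pass.

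In the primary culture of hippocampal cells, Wfs1 was the only listed member with a higher signal than tissue. Its signal was 29.4 in RPF (9317 reads) and 7.28 in RNA (1034 reads), which is 1.28 and 1.60 times the mean of the 3 control tissue libraries. Nov was at 5.09 and 4.04, or 0.149 and 0.172 of control tissue, and Fibcd1 at 2.65 and 1.59, or 0.182 and 0.194. C1ql2 was at 0.776 and 0.493, or 0.129 and 0.141 of control tissue, from 246 and 70 reads. Prox1 kept 0.434 of its tissue signal in RPF (1.41) but 0.212 in RNA (0.690, 95% exact Poisson interval 0.560 to 0.841, counting error only). Pou3f1, Dsp and Bok were absent from the culture's list.

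The tables were normalised separately and each kind had a single culture library, so these ratios have no replicate check and no test. Scaled instead to the reads on listed genes, they were 1.37 and 1.95 for Wfs1 and from 0.137 to 0.464 for the other 4 listed genes, so the directions were the same. The TE of Wfs1 in the culture was 1.81, higher than 99.2% of 6804 genes there. That of Prox1 was 0.45, above 77.1% of genes, where in control tissue it exceeded 47.5%.

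Embryonic stem cells listed Wfs1, Nov, Dsp and Bok, and Fibcd1, Pou3f1, Prox1 and C1ql2 were absent from that list. Dsp, an epithelial junction gene, had a signal of 3.14 in RPF (2063 reads) and 1.61 in RNA, 4.79 and 1.55 times that of control tissue, or 3.08 and 1.23 times when scaled to the reads on listed genes. Wfs1 was at 3.74 and 1.14, or 0.163 and 0.252 of control tissue. Nov was at 0.214 and 0.0837, the latter from 18 reads (95% exact Poisson interval 0.0496 to 0.132), which is 0.00629 and 0.00357 of control tissue. Bok was at 0.447 and 1.67, with a TE of -1.08, higher than 6.78% of 6786 genes. The TE of Wfs1 in stem cells was 0.95, above 90.2% of genes.

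**Figure D5:**
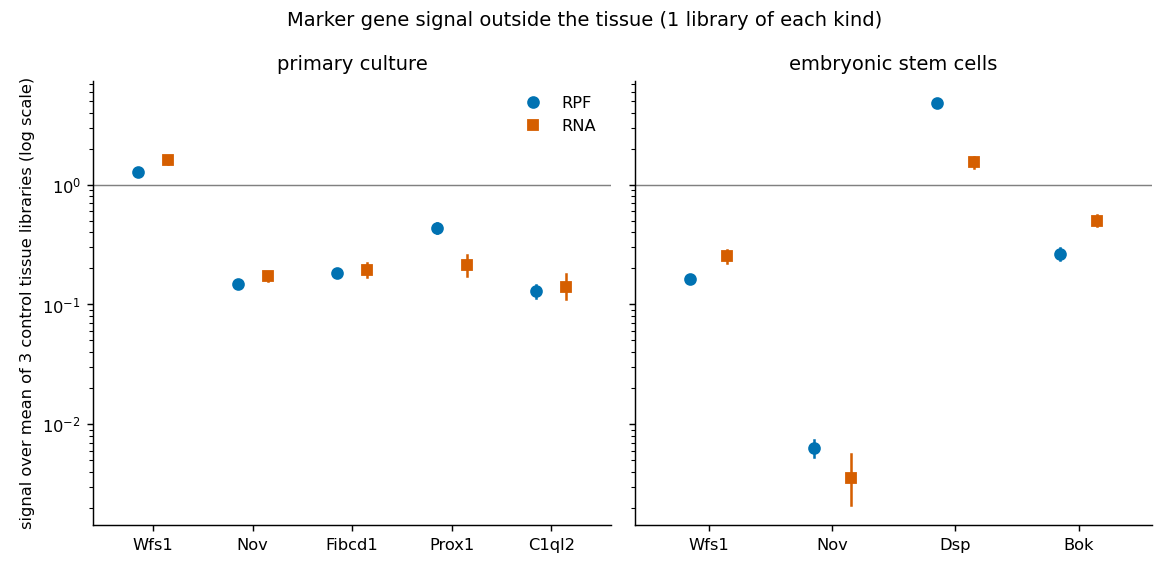
Signal of the listed members in the primary culture (left, 5 genes) and in embryonic stem cells (right, 4 genes) over the mean of 3 control tissue libraries, on a log axis; points are single libraries in RPF and RNA, lines the 95% exact Poisson interval of the reads. Wfs1 in culture (1.28 and 1.60) and Dsp in stem cells (4.79 and 1.55) lie above 1, and all other points below.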

How the data were processed

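Mouse hippocampus (15 RPF and 15 RNA libraries), a primary culture and embryonic stem cells (1 of each kind) were analysed from the deposited signal tables. Per the submitters' processing notes, CASAVA 1.8.2 and Bowtie 1.1.1 were used with the mouse genome mm9. The sources used here do not say how multiply mapped reads or strand were treated. The unit of the deposited signal is not stated beyond a header term for a count, per the file headers. Multiplied by 1 number per library, all values came within 0.001 of whole reads, and the deposited means and log2 ratios, per the file headers comparisons with control, equal those of the replicates. All per-sample columns were used.

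Signals were tested by limma 3.58.1 (R 4.3.3, lmFit, eBayes with a trend) on log2(signal + 1) where a gene's mean over 15 libraries reached 1. All 5 groups entered each model, tests were 2-sided, and p-values were adjusted by Benjamini-Hochberg over every gene tested (threshold 0.05). TE was tested as the interaction of library kind and time in 30 libraries. Correlations used 100000 permutations (numpy 2.4.6), and intervals scipy 1.17.1. The test was checked on simulated data that held no general difference between replicate numbers. That check therefore does not cover the fits by time in data where the numbers differ, as they do here. Replicate numbers were taken to pair libraries, because deviations of same-numbered libraries correlated in all 30 pairs of each kind (r from 0.40 to 0.94 in RPF and 0.27 to 0.87 in RNA). These correlations are between times within 1 kind of library. That an RPF and an RNA library of the same time and number belong together was taken from the labels and was not tested. The main fits have no block.

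The members and lists were chosen with earlier results of these data known. All 8 members are named, with up to 4 called genes of each other list by size of change (fewer are printed here), the most abundant gene of a list without calls, and the 5 genes most like each pattern. Alternatives were another pseudocount (0.1), no minimum mean, other scalings, limma voom on recovered reads, the replicate block and each library left out.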

Additional observations from a re-analysis of the deposited data

How the results depend on the processing

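With the replicate block, with pseudocount 0.1, without the minimum mean, with median-of-ratios scaling, and with each library left out, 0 calls of members against control were made in RPF, RNA or TE, nor with limma voom, run on RPF and RNA. A count test (edgeR) and TMM factors were not run, because the unit of the deposited values is not stated. Whole reads could still be recovered from these values. Limma voom, run on those reads, and median-of-ratios factors, both chosen after seeing the data, took their place. Over all genes, the replicate block called 0 to 4 genes at a time in RPF, 1 to 3 in RNA and 0 to 1 in TE, against 0 without it. Without the minimum mean it called 0 to 7 in RPF and 3 to 5 in RNA, and limma voom with the block 0 to 4 and 0 to 2. Of the other lists the block without the minimum mean called 1 gene, Aqp1 of the choroid plexus in RNA at 4 h (-0.48, adjusted p = 0.0434), against 0, and it changed no other call in them.

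Between replicate numbers, leaving out 1 library gave 5 to 6 members called in RPF, 4 to 6 in RNA and 2 to 5 in TE. The count of correlated members ran from 0 to 2, and that of members with TE above the median gene in control from 5 to 6, with Prox1 between -0.088 and 0.021. Signs of uncalled changes turned when 1 library was left out: C1ql2 (RPF, 30 min, -0.0037 to 0.17; TE, 4 h, -0.027 to 0.15), Bok (RPF, 5 min, -0.054 to 0.13; RNA, 4 h, -0.13 to 0.0090; TE, 30 min, -0.015 to 0.10), Wfs1 (RNA, 10 min, -0.013 to 0.16) and Dsp (RPF, 5 min, -0.18 to 0.062; TE, 4 h, -0.24 to 0.014). The correlation of RPF and RNA ran from -0.0051 to 0.56 for Wfs1 and from -0.0016 to 0.41 for Prox1. Without centring it turned to -0.28 for Prox1, -0.13 for Dsp and 0.72 for Bok. In each case the cause was not tested. Depth limits Dsp most, with 93 to 478 reads in RPF.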
